A study of Mus musculus with 6 samples.

Results

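The 9 interferon response genes described here were Irf7, Slc15a4, Isg15, Ifit1, Ifit3, Oasl2, Bst2, Rtp4 and Irf9, and all 9 were among the 14865 genes listed for the cochlear duct of mice at postnatal day 8 (P8). They were picked by name after values of the comparison between genotypes had been seen in these same libraries, Irf7 and Slc15a4 being the genes of interest and the others known interferon targets or partners. Their levels and differences are therefore given as a description, without a test. Other interferon genes, listed by known function but also with earlier results of these data known, were tested. The question was whether other interferon targets moved with Irf7.

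Polyadenylated RNA was sequenced in 6 libraries of C57BL/6 mice, 3 of Gfi1+/+ pups and 3 of Gfi1cre/+ pups, with no treatment. In Gfi1cre/+ mice 1 copy of Gfi1, a transcription factor gene of hair cells and blood cells, has the coding sequence of Cre recombinase in place of most of its exons, and the other copy is intact. The line was made with 129S6 and C57BL/6J mice and then kept on C57BL/6J, and the Gfi1 promoter drives Cre both in hair cells and in immune cells of the inner ear. A Gfi1+/+ library came from 2 cochleae of 1 mouse, whereas a Gfi1cre/+ library pooled 6 cochleae of 3 mice. Values are normalized reads, which are reads counted on a gene divided by 1 size factor per library.

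Interferons are secreted antiviral signals. Type I interferon binds a receptor made of Ifnar1 and Ifnar2, the kinases Jak1 and Tyk2 then activate Stat2, which joins Irf9 in a complex that binds the interferon-stimulated response element in front of target genes. Irf7 is itself such a target and, once activated below nucleic acid sensors, switches on the interferon genes, which closes a loop. Slc15a4 is a histidine and peptide transporter of the endolysosome membrane that Toll-like receptors of that compartment need to activate Irf7 in immune cells. Interferon gamma uses another receptor, and it strongly induces Irf1 and families of large GTPases, the guanylate-binding proteins (Gbp genes) and the immunity-related GTPases. Resident macrophages are the main immune cells known in the cochlea.

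The reads recovered from the deposited values ran from 13603908 to 16136022 per library in Gfi1+/+ and from 17939607 to 19359753 in Gfi1cre/+. The targeted gene, Gfi1, had 147, 160.2 and 152 normalized reads in the Gfi1+/+ libraries and 136, 129.6 and 139 in the Gfi1cre/+ libraries. It was lower in each Gfi1cre/+ library, as were 4.07% of all genes tested, with a log2 difference of -0.18 (limma unadjusted p = 0.0945). The paper reports no significant decrease of Gfi1 in these data, and it attributes this to reads from what remains of the transcript. By RT-qPCR of newborn cochleae it found significantly less of the exons that Cre replaces. Exons kept by both alleles did not change there. Gfi1+/+ replicate 1 stood apart from the rest, with a score of -44.0 on the first principal component against -0.304 to 16.2 in the other libraries, and 8 of 8 neuron markers were highest in it. Of the 14455 genes tested, 4 (0.0277%) passed an adjusted p-value of 0.05 in limma, all of them Y-linked. The Y-linked gene Ddx3y was at 0 in each Gfi1+/+ library and at 232 to 485 in the Gfi1cre/+ libraries, with Xist at 7338 to 8138 and 2301 to 5359, so genotype and the sex of the pups cannot be told apart in any comparison below. In RNA from whole tissue, fewer cells of a type and less RNA per cell cannot be told apart either.

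The promoters of the target genes are shown first, because a letter pattern sets 4 of them apart from those of Irf7 and Slc15a4. The core of the interferon-stimulated response element was searched as GAAANNGAAA on both strands in the 250 bases before each start site annotated by RefSeq (GRCm38.p6, the same assembly as mm10). Of the 9 genes, 8 had an entry in the promoter table; Rtp4 is named only. Each line gives the 110 bases from 165 to 56 bases before the start site, 5′ to 3′ on the strand of the gene, with matches to the core in capitals (TTTCNNTTTC is the core read on the other strand). The 4 promoters with a match come first, followed by those of Irf7 and Slc15a4.
Isg15 (chr4:156200874-156200983, minus strand): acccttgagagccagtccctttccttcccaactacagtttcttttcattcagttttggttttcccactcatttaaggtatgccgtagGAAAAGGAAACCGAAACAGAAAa
Bst2 (chr8:71537528-71537637, minus strand): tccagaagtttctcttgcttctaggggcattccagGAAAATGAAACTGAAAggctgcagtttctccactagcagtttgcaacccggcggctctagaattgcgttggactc
Ifit1 (chr19:34640724-34640833, plus strand): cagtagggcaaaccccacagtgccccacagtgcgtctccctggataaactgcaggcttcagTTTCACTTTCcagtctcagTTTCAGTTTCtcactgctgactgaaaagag
Ifit3 (chr19:34583364-34583473, plus strand): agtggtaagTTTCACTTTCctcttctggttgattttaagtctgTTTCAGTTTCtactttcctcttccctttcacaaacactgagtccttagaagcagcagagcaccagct
Irf7 (chr7:141266480-141266589, minus strand): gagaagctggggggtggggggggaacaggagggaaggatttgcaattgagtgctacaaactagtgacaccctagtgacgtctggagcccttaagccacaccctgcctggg
Slc15a4 (chr5:127617448-127617557, minus strand): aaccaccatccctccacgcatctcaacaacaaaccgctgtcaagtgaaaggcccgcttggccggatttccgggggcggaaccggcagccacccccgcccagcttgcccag

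In Isg15, 3 matches overlapped each other and began 78, 72 and 66 bases before the start site. Bst2 held 2 overlapping matches that began 130 and 124 bases before it. Ifit1 and Ifit3 each held 2 separate matches on the other strand, the first of them 104 bases before the start site in Ifit1 and 156 bases before it in Ifit3. No match was in the 250 bases before the start sites of Irf7, Slc15a4, Oasl2 or Irf9, which says only that these letters are not in that window. The Slc15a4 stretch lies inside an intron of longer annotated transcripts of the same gene, the Irf7 stretch ends at the first exon of a longer Irf7 transcript, and the start of the Ifit1 stretch overlaps the first exon of Ifit1bl2 on the other strand. The core was present in 978 of 32851 promoters of the table (2.98%) and in 311 of the 10283 genes tested that had a promoter (3.02%).

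**Figure D1:**
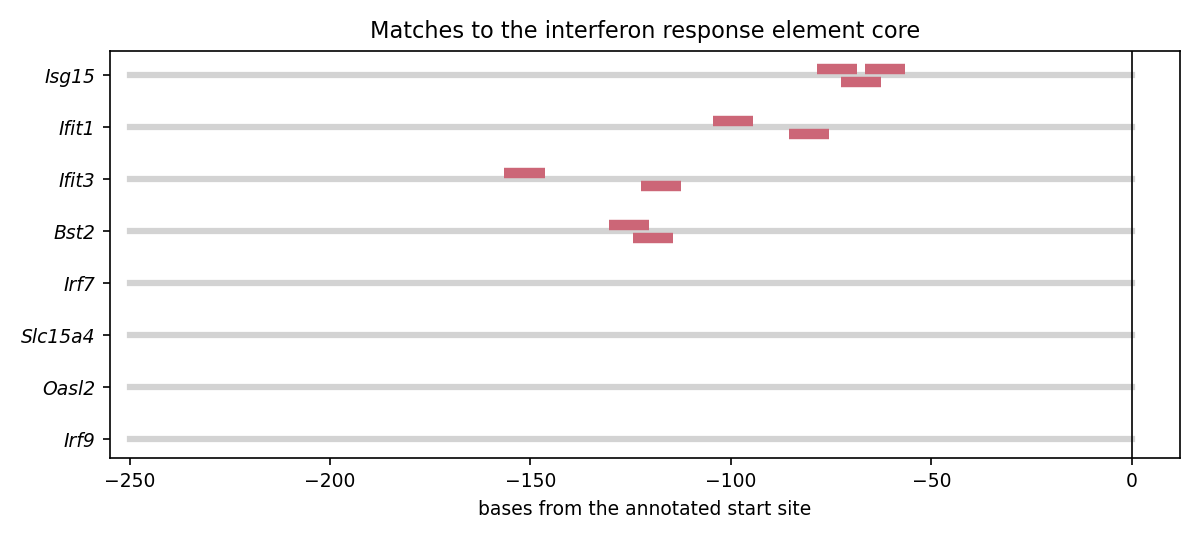
Position of each match to the GAAANNGAAA core (red bars, either strand, overlapping matches offset) in the 250 bases before the annotated start site (position 0) of the 8 genes with a promoter entry. Isg15, Ifit1, Ifit3 and Bst2 hold matches between 156 and 57 bases before the start site, and the other 4 genes hold none.

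Irf7 and Slc15a4 were the only genes of the 9 whose libraries did not overlap between genotypes. Irf7 (chr7:141262706-141266481) had 77.8, 79.6 and 91.8 normalized reads in the Gfi1+/+ libraries and 113, 132 and 127 in the Gfi1cre/+ libraries. Each Gfi1cre/+ library was above each Gfi1+/+ library, and the means were 83.0 ± 7.62 and 124 ± 9.93 (SD, n = 3 each), a ratio of 1.50. The difference in log2(normalized reads + 1) was 0.58 with a standard error of 0.129, resting on 63 to 149 reads per library. For the transporter Slc15a4 (chr5:127595664-127632897), the Gfi1+/+ libraries held 465, 439 and 436 normalized reads and the Gfi1cre/+ libraries 547, 563 and 536. These libraries did not overlap either, but the ratio was smaller, with means of 447 ± 16.3 and 549 ± 13.5 (SD, n = 3 each), a ratio of 1.23 and a log2 difference of 0.30 with a standard error of 0.0628. Among all genes tested, 3.45% had each Gfi1cre/+ library above each Gfi1+/+ library, and since the genotype values chose these genes nothing is read from 2 of 9. Slc15a4 lies on the chromosome of Gfi1, 19.9 Mb from it, and Irf7 lies on another chromosome.

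The targets of the response did not separate the genotypes. Isg15, a ubiquitin-like protein that is coupled to other proteins during the response, came closest, with 56.8, 38.7 and 42.2 normalized reads in Gfi1+/+ and 48.7, 80.8 and 66.0 in Gfi1cre/+. Its highest Gfi1+/+ library was above its lowest Gfi1cre/+ library, and the log2 difference of 0.49 had a standard error of 0.239. Without Gfi1cre/+ replicate 2 the difference was 0.32.

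Ifit1 and Ifit3 encode proteins that bind foreign RNA and lie in 1 cluster on chromosome 19. Ifit1 had 50.6, 50.3 and 41.1 normalized reads in Gfi1+/+ and 37.4, 56.8 and 55.7 in Gfi1cre/+, so both its lowest and its highest library were Gfi1cre/+ and the log2 difference was 0.06 (standard error 0.225). Ifit3 had 173, 177 and 187 in Gfi1+/+ and 169, 237 and 186 in Gfi1cre/+. In Ifit3, 1 Gfi1cre/+ library was high and the remaining 2 lay within or below the Gfi1+/+ range (log2 difference 0.13, standard error 0.128). Of the distinct 100-base windows of Ifit3 transcripts, 31.7% also occurred in the transcripts of its copy Ifit3b, listed as I830012O16Rik, so reads there could not be placed uniquely. That copy had 72.8, 63.9 and 70.7 normalized reads in Gfi1+/+ and 48.7, 70.1 and 84.9 in Gfi1cre/+.

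Oasl2, an oligoadenylate synthetase-like protein, showed the same single high library, with 194, 181 and 207 normalized reads in Gfi1+/+ and 169, 265 and 188 in Gfi1cre/+ (log2 difference 0.07, standard error 0.156). Bst2, or tetherin, which holds budding virus at the cell surface, had 623, 557 and 589 in Gfi1+/+ and 603, 701 and 593 in Gfi1cre/+ (log2 difference 0.10, standard error 0.0815). Oasl2 lies on the chromosome of Gfi1 as well, 7.18 Mb from it. Rtp4, a receptor transporter protein gene induced by interferon, had 123, 147 and 119 normalized reads in Gfi1+/+ and 138, 145 and 139.6 in Gfi1cre/+, and it was the only gene of the 9 whose highest library was Gfi1+/+ (log2 difference 0.12, standard error 0.114). Irf9, the DNA-binding partner of Stat2, had 680, 702 and 728 in Gfi1+/+ and 642, 758 and 663 in Gfi1cre/+, with a log2 difference of -0.03 and a standard error of 0.0748. For 5 of these 7 genes, namely Ifit1, Ifit3, Oasl2, Rtp4 and Irf9, the difference was at most about the size of its standard error.

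**Figure D2:**
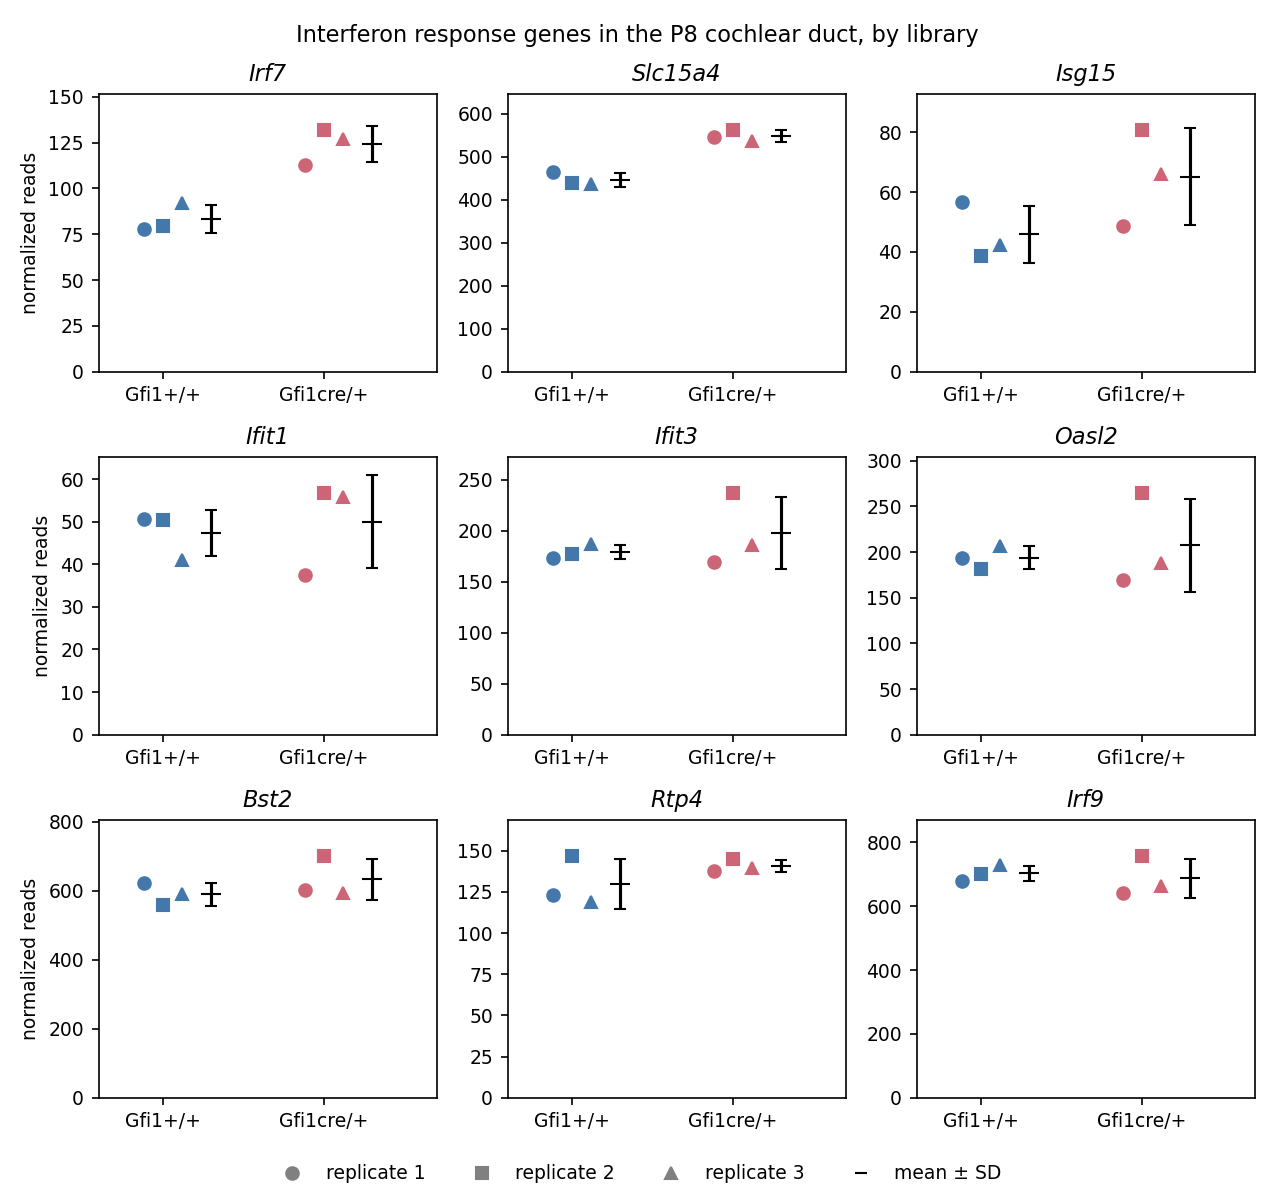
Normalized reads of the 9 genes (vertical axes, each from 0) in the 3 Gfi1+/+ libraries (blue) and the 3 Gfi1cre/+ libraries (red), with the symbol giving the replicate number and the black bar the mean and SD. Only Irf7 and Slc15a4 have all red symbols above all blue ones, and the red square, Gfi1cre/+ replicate 2, is the highest point in 8 of the 9 panels.

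The 8 genes with their highest value in Gfi1cre/+ replicate 2 were all but Rtp4, and 4 of the 9, Ifit1, Ifit3, Oasl2 and Irf9, had their lowest value in another library of the same genotype, Gfi1cre/+ replicate 1. Of all genes tested, 12.9% were highest in Gfi1cre/+ replicate 2. Relative to the mean of the other 5 libraries, that library held 1.60 times the Isg15, 1.41 times the Oasl2 and 1.33 times the Ifit3 reads. Irf7 stood at 1.35 times, a ratio that includes its genotype difference, and relative to the other 2 Gfi1cre/+ libraries it stood at 1.10 times, with Isg15 at 1.41, Oasl2 at 1.48 and Ifit3 at 1.34. With the library left out, the differences of Irf7 and Slc15a4 were 0.53 and 0.28, close to those with all libraries, and the median over the 9 genes went from 0.12 to 0.02. Ifit1, Ifit3, Oasl2 and Irf9 then had differences of -0.04, -0.01, -0.12 and -0.11. The differences of Irf7 and Slc15a4 thus changed little without this library, whereas the positive differences of the targets became smaller or negative. Libraries that do not overlap stay apart when any 1 of them is left out. Irf7 and Slc15a4 were also chosen with their values known, so this contrast is a description only.

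Levels between genes can be compared only per length, here as normalized reads per kilobase of merged exons in Gfi1+/+. On that scale Bst2 was highest with 653 ± 36.7 (SD, n = 3), followed by Irf9 with 131 ± 4.44, Ifit3 with 102 ± 4.09 and Slc15a4 with 84.1 ± 3.08. Rtp4 with 60.9 ± 6.92 and Isg15 with 60.7 ± 12.7 did not differ beyond their spread. Oasl2 with 30.4 ± 2.01, Irf7 with 22.0 ± 2.02 and Ifit1 with 17.8 ± 2.02 were lowest, and Irf7 is understated, since its annotated exons together cover the whole gene. In Gfi1cre/+ the order changed in 2 places within the spread, Isg15 (86.2 ± 21.2) standing above Rtp4 (66.0 ± 1.73) and Irf7 (32.9 ± 2.63) beside Oasl2 (32.5 ± 7.95). The targets were therefore expressed in both genotypes. The place of Irf7 in this order is uncertain, because division by its merged exons understates it.

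Among the interferon genes tested, which leave out the 9, none passed the adjusted threshold. Of 156 further genes of the pathway, 122 were listed and 116 tested by limma with Benjamini-Hochberg adjustment over all genes tested, and 0 had an adjusted p-value under 0.05, as with edgeR and DESeq2. At an unadjusted p-value under 0.05, 2 of the 116 were higher in Gfi1cre/+ and 1 was lower, against 1.02% and 2.02% of all genes tested. edgeR gave 4 such genes of the 116 and DESeq2 5, against 3.64% and 2.59% of all genes. The 5 of DESeq2 included 0 of limma's 3 genes. Values nevertheless leaned to one side: 91 of the 116 differences were positive and 25 negative, with a median of 0.0823 on the log2 scale, whereas 7218 of all 14455 genes tested were positive with a median of -1.16e-04. Of the 116, 4 reached the minimum of 40 normalized reads only in Gfi1cre/+ replicate 2, Tgtp1, Tgtp2, Zbp1 and Ifi204. In 13 of the 116 each Gfi1cre/+ library was above each Gfi1+/+ library and in 4 each was below, against 3.45% and 4.07% of all genes. The lean remained without Gfi1cre/+ replicate 2, with 86 of 116 positive and a median of 0.05, and without Gfi1+/+ replicate 1, with 86 of 116 and 0.06.

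Of the 2 genes with higher values, Irf1, a transcription factor central to the response to interferon gamma, had 358, 343 and 371 normalized reads in Gfi1+/+ and 383, 455 and 409 in Gfi1cre/+ (log2 difference 0.21, standard error 0.0817, limma unadjusted p = 0.0275, adjusted p = 0.999). Its libraries did not overlap between genotypes, but it was highest in Gfi1cre/+ replicate 2. Without that library the difference was 0.15, with an unadjusted p-value of 0.118 from limma's fit across all genes. The lower gene was Nmi, an interferon-induced signalling protein, with 288, 261 and 266 normalized reads in Gfi1+/+ and 225, 238 and 249 in Gfi1cre/+ (log2 difference -0.19, standard error 0.0822, limma unadjusted p = 0.0447, adjusted p = 0.999).

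Among 54 further effectors tested, the antiviral and antibacterial end of the pathway, 42 differences were positive and the median was 0.0967. The 3 with the most normalized reads, not divided by length, were Ifi27, Shisa5 and Lgals3bp, with log2 differences of -0.01, 0.05 and 0.09 and libraries that overlapped in each case. Upstream of Irf7, 20 genes of nucleic acid sensing had a median of 0.0308, and 0 of them passed an unadjusted p-value of 0.05 in limma. Those with the most normalized reads, again not divided by length, were the kinase Irak1 and the adaptors Traf3 and Mavs, which differed by 0.03, 0.01 and 0.09.

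The 17 receptor and JAK-STAT genes had a median of 0.0531, with 1 of 17 at an unadjusted p-value under 0.05. Ptpn11, a phosphatase of cytokine signalling, Jak1 and the receptor Ifnar1 had the most normalized reads and differed by 0.11, 0.03 and 0.02. The 9 other interferon regulatory factor genes had a median of 0.0307, and Irf2bp1 and Irf3, among the 3 with the most normalized reads, differed by 0.07 and 0.03. The interferons themselves were out of reach, since 0 of 21 ligand genes were listed. Of the other Slc15 transporters, Slc15a2 differed by 0.02 and Slc15a3 by 0.17, so the values of the family beside Slc15a4 overlapped between genotypes.

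**Figure D3:**
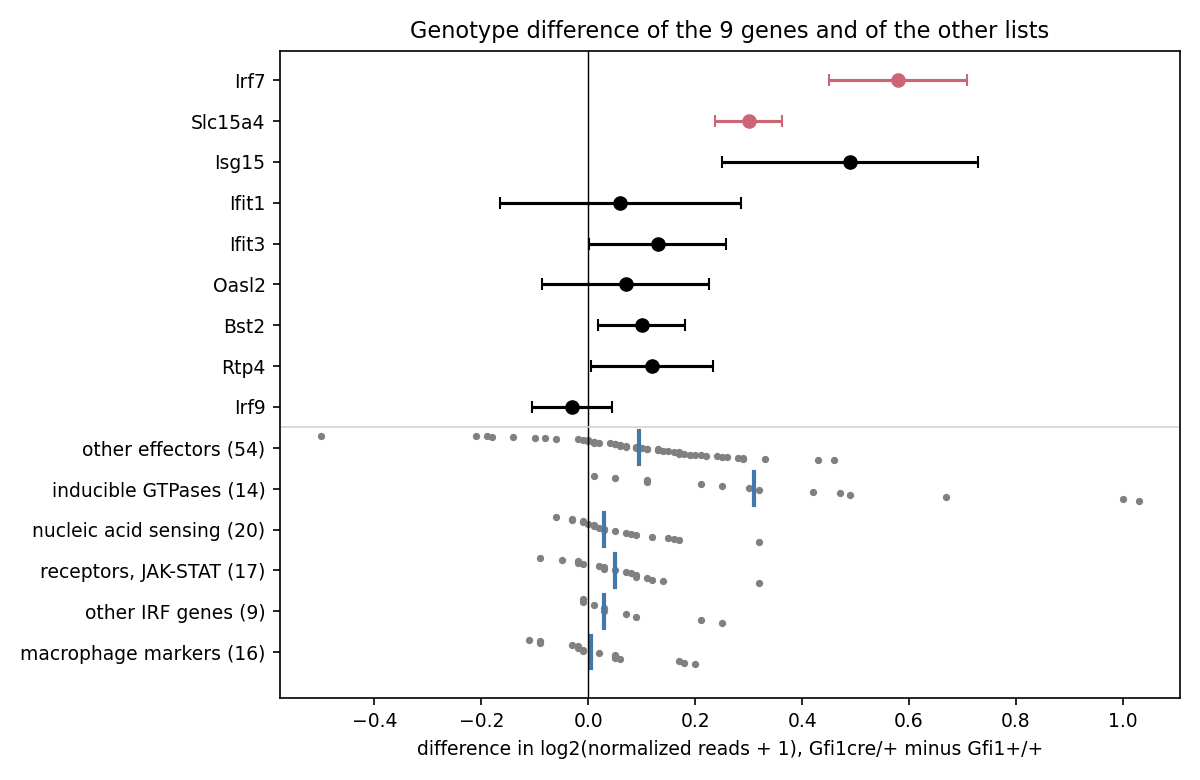
Difference in log2(normalized reads + 1), Gfi1cre/+ minus Gfi1+/+, for each of the 9 genes (points with standard error bars, red where libraries did not overlap) and for the genes of the other lists (grey points, 1 per gene, number tested in parentheses, blue line the median). Irf7 at 0.58, Isg15 at 0.49 and Slc15a4 at 0.30 lie farthest to the right among the 9, and the GTPases have a median of 0.31 against 0.00927 to 0.0531 for the receptor, sensing, IRF and macrophage lists.

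The interferon-inducible GTPases had the largest median difference of the interferon lists, and it rested mostly on 1 library. All 14 GTPases tested had positive differences, with a median of 0.307, yet 0 of the 14 passed an unadjusted p-value of 0.05 in limma or the adjusted threshold. In edgeR also 0 of the 14 did, and DESeq2, which gave 2.59% of all genes, gave 5 at an unadjusted p-value under 0.05, Tgtp1 among them. In 14 of 14 the highest Gfi1cre/+ library was replicate 2, and in 13 of 14 that library was the highest of all 6, Gbp8 being the exception. The summed level of the list was 2678 to 2737 normalized reads in Gfi1+/+, 2779.8 and 2866 in Gfi1cre/+ replicates 1 and 3, and 4693 in Gfi1cre/+ replicate 2.

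Tgtp1 and Tgtp2 entered the test only through Gfi1cre/+ replicate 2, being under 40 normalized reads in each other library. Over the other 12 genes, 11 were highest in that library, and the median difference was 0.28 with it and 0.08 without it. Tgtp1, a T cell-specific GTPase by name, had 59.5 normalized reads in Gfi1cre/+ replicate 2 (67 reads) and 7.33 to 9.44 in the other 5 libraries (6 to 10 reads), a ratio of 7.35 to their mean, given as a description. Gbp2 had 325 in that library and 63.9 to 104 elsewhere, and Igtp had 367 against 157 to 184, ratios of 3.64 and 2.22. The 3 with the most normalized reads, Irgm1, Gbp6 and Gbp3, had 751, 703 and 633 there, against 424 to 511, 385 to 507 and 438 to 490.0 elsewhere. Gbp8, with 41.7 there and 27.2 to 41.9 elsewhere, had the smallest ratio of the list, 1.28. The 14 genes lie on chromosomes 3, 5 and 11, with 4, 4 and 6 genes. Without Gfi1cre/+ replicate 2 the list's median fell to 0.08, with 10 of 14 differences positive, and without Gfi1cre/+ replicate 1, in which the list was lowest among the Gfi1cre/+ libraries, it was 0.43. Of the 10 GTPase genes with a promoter entry, 9 held the response element core, against 15 of 48 other effectors, 1 of 16 sensing genes, 2 of 14 receptor and JAK-STAT genes and 1 of 8 other interferon regulatory factor genes.

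**Figure D4:**
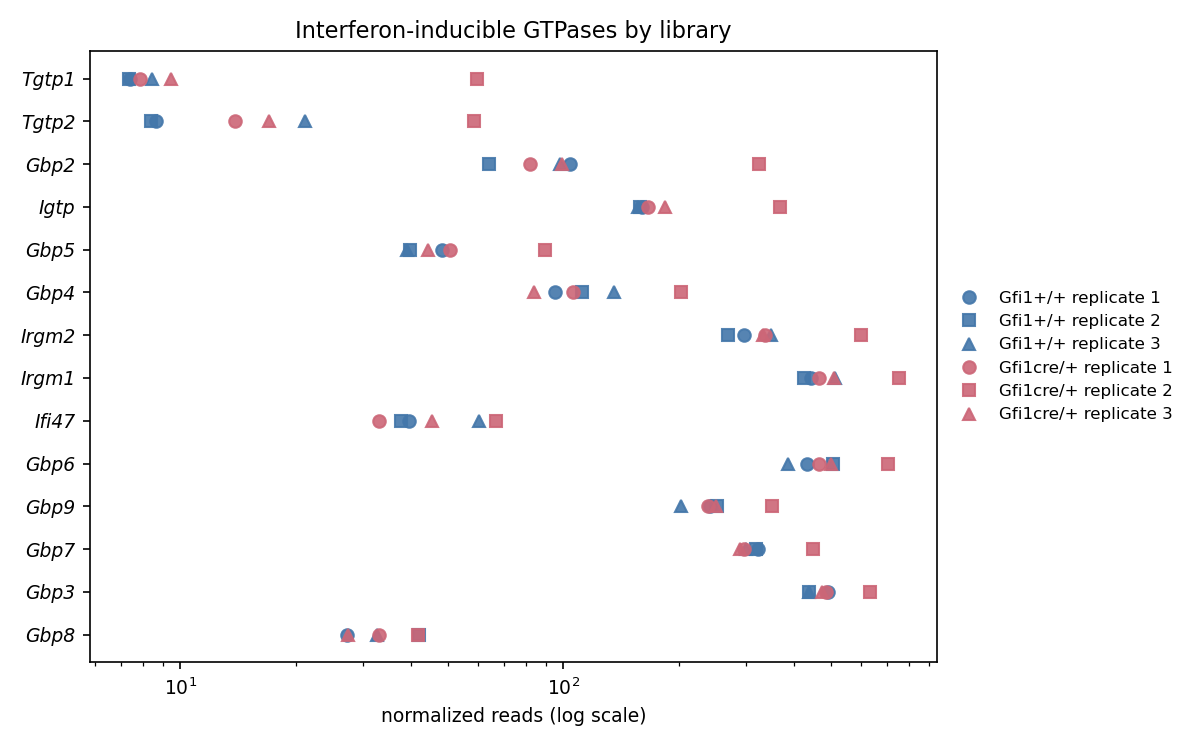
Normalized reads (log axis) of 14 interferon-inducible GTPases in each library, Gfi1+/+ in blue and Gfi1cre/+ in red, ordered by the ratio of Gfi1cre/+ replicate 2 to the mean of the other 5 libraries. The red square of Gfi1cre/+ replicate 2 is the rightmost point for 13 of 14 genes, all but Gbp8. Its ratio to the mean of the others runs from 1.28 in Gbp8 to 3.64 in Gbp2 over 12 genes. Tgtp1 and Tgtp2, at 7.35 and 4.25 times, were tested only because of that library.

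Seen by library, the mean deviation of the GTPases from their own 6-library means, taken over the 12 that reached 40 normalized reads in another library as well, was 0.678 in Gfi1cre/+ replicate 2 and between -0.178 and -0.094 in the other 5 libraries; with Tgtp1 and Tgtp2 it was 0.869 in that library. The 9 genes deviated by 0.285 in that library, and the 54 other effectors by 0.117. Sensing genes, at 0.041, and receptor and JAK-STAT genes, at 0.044, were no higher there than in Gfi1cre/+ replicate 3, at 0.065 and 0.044. A pool of 3 mice gave this library, so whether 1 pup or all of them carried the high values cannot be told apart.

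**Figure D5:**
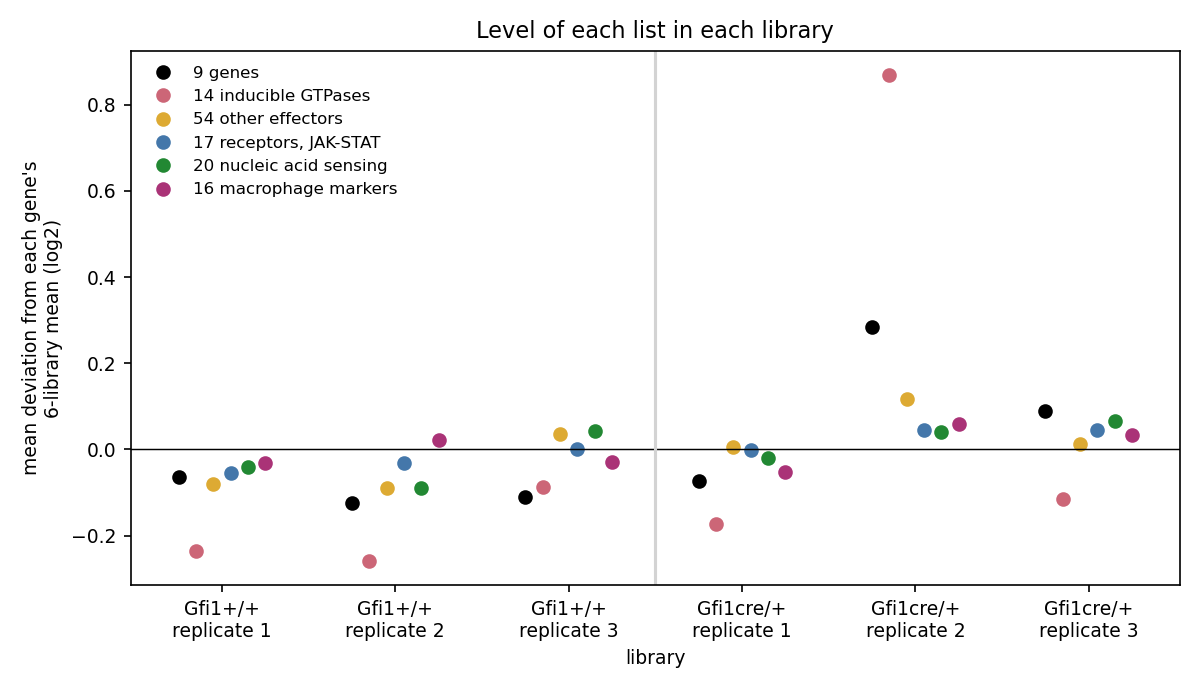
Mean deviation (log2) of the genes of each list from their own mean over the 6 libraries, for each library (horizontal axis, Gfi1+/+ left and Gfi1cre/+ right of the grey line). The GTPases stand at 0.869 in Gfi1cre/+ replicate 2 and below 0 in the other libraries, with Tgtp1 and Tgtp2 included, while the macrophage markers stay between -0.053 and 0.058 throughout.

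None of the 5 genes most like Irf7 across the 6 libraries was on the interferon lists. Likeness was the root mean square difference between centred log2 levels, ranked over 14454 genes, and it is a description in which all genes share the same libraries and depth. The 5 nearest were Gm8995 (0.0573), Rasl11a (0.0935), Gm11914 (0.113), Irx6 (0.117) and Mxra7 (0.124), against 0.321 for the median gene and 0.305 for a gene that did not vary. Slc15a4 ranked 48 (0.182). Of the targets, Ifit3 ranked 730, Isg15 1008, Bst2 1528, Rtp4 2326 and Oasl2 4404, while Irf9, at 6360, and Ifit1, at 8557, were farther from Irf7 than a flat gene is. In the other direction, the 5 genes most like Slc15a4 were Gm5529 (0.0509), Gm4737 (0.0533), Rabl2 (0.0555), Rassf7 (0.0593) and Myot (0.0628). Irf7 ranked 7176 (0.182), against 0.182 for the median gene and 0.153 for a gene that did not vary. Likeness is not scaled to the size of a change, so a larger change in the same direction also puts a gene far away. A few genes of the interferon lists came near, Slfn2 at rank 11 for Irf7 and Herc6 at rank 8 for Slc15a4.

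The nearest listed genes on either side of Irf7 and Slc15a4 overlapped between genotypes. Phrf1 and Deaf1, beside Irf7, whose start coordinates are 33.9 and 34.5 kb away, had 1458 ± 70.1 and 1044 ± 40.8 normalized reads in Gfi1+/+ and 1504 ± 73.6 and 1024 ± 15.9 in Gfi1cre/+ (SD, n = 3), log2 differences of 0.04 and -0.03. Rassf7, which lies past Phrf1 and starts 46.8 kb from Irf7, was higher in each Gfi1cre/+ library, with 205, 214 and 219 normalized reads in Gfi1+/+ and 261, 265 and 259 in Gfi1cre/+ (log2 difference 0.30); it was picked for its likeness to Slc15a4, so this is a description. Phrf1 and Irf7 overlap by 45 bases on opposite strands, and the counting is not stated to use strand, so reads in that stretch cannot be assigned. Tmem132c and 5930412G12Rik, with starts 354 and 983 kb from that of Slc15a4, differed by 0.03 and 0.12. Slc15a4 is also overlapped on the other strand, by Gm43474 over 774 bases and by Glt1d1 over 636 bases, neither of them listed. Irf7, Slc15a4, Isg15, Oasl2 and Bst2 shared no 100-base window with another gene, whereas Rtp4 shared 9.28% with the transcript Gm45338, which spans it, Ifit1 3.29% with Ifit1bl2 and Irf9 0.411% with Rnf31.

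Markers of the cells that could carry these transcripts differed in how they moved. The 16 macrophage markers, all tested, summed to 9354 to 10212 normalized reads in Gfi1+/+ and 9269 to 9994 in Gfi1cre/+, with 8 higher and 8 lower values and a median difference of 0.00927, so their total overlapped between genotypes. Plasmacytoid dendritic cells, in which the pathway through Slc15a4 and Irf7 is best known, left little trace: 1 of 5 markers was listed, Siglech, with 28.3 to 38.0 in Gfi1+/+ and 22.2 to 31.3 in Gfi1cre/+. Of 9 lymphoid markers 0 were listed. Neutrophil and precursor markers, 6 of 11 listed, summed to 61.7 to 271 in Gfi1+/+ and 236 to 460.4 in Gfi1cre/+, and 10 of 11 erythroid markers summed to 29501 to 43867 and 38386 to 66419.9. All 6 and all 10 had higher values in Gfi1cre/+. An unadjusted p-value under 0.05 in limma was found for 4 of the 6 and 9 of the 10, against 1.02% of all genes tested. Of these, 2 neutrophil and 4 erythroid markers reached 40 normalized reads only in Gfi1cre/+ libraries. Endothelial markers, 9 of 9, summed to 8701 to 9444 and 8718 to 9898, with 8 of 9 higher and Pecam1 and Tek at an unadjusted p-value under 0.05. The part of blood cells, endothelium and sex in the differences of Irf7 and Slc15a4 was not tested. Other markers were lower in Gfi1cre/+. Of the neuron markers 8 of 8 were, with a median log2 difference of -1.26. At an unadjusted p-value under 0.05 in limma were 5 of the 8, against 2.02% of all genes tested. Their sums were 9577, 3494 and 2177 in Gfi1+/+ and 1706 to 2529 in Gfi1cre/+, and libraries were apart in 0 of the 8. The sum of 9577 was that of Gfi1+/+ replicate 1, the library that stood apart from the rest. Of hair cell markers, 10 of 11 were lower, with a median of -0.132. In 4 of them libraries did not overlap, against 4.07% of all genes tested. The targeted gene, Gfi1, is itself on this list and counts among both the 10 and the 4. The tissue markers were present in both genotypes, with 11 of 12 hair cell markers and 6 of 6 markers of the cochlear epithelium listed.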

How the data were processed

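RNA-seq of the P8 cochlear duct was analysed in 6 libraries, 3 per genotype. The authors prepared TruSeq libraries, aligned paired reads to mm10 with TopHat, counted uniquely mapped reads per gene by HTSeq-count and dropped genes with fewer than 40 reads. The annotation, strand setting and software versions are not given in the sources used here. The deposited table holds 1 normalized signal per gene and library. The methods name quantile normalization, but in each library 100% of the values came out as whole numbers of 1 step within 0.01, so each signal is a read count over a size factor. A count of 0 allows up to 3 reads, which is 2.61 to 3.70 normalized reads and covers counting error only.

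Genes reaching 40 normalized reads in any library entered limma 3.58.1 (R 4.3.3) on log2(value + 1), genotype as the only term, eBayes with trend, two-sided, Benjamini-Hochberg adjustment over 14455 genes. This scale understates the change of genes with few reads. edgeR 4.0.16 and DESeq2 1.42.0 on the recovered reads, other pseudocounts, filters and scalings, the replicate number as a block and each library left out were the alternatives. The steps were tested on simulated counts. Positions were taken from GENCODE (GRCm38), where 14791 of 14865 identifiers were found, and promoter sequences from RefSeq (GRCm38.p6).

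The 9 genes and all lists were chosen with earlier results of these data known, so they are not independent evidence. The further interferon lists were effectors, GTPases, sensing, receptors and JAK-STAT, other interferon regulatory factors, ligands and other Slc15 genes; marker lists covered macrophages, plasmacytoid dendritic cells, lymphoid cells, neutrophils, erythroid cells, endothelium, neurons, hair cells and epithelium. Genes were named if they were among the 9, had an unadjusted p-value under 0.05 in limma or had 1 of the 3 highest mean normalized reads (not per length) of an interferon list, were among the 5 most like Irf7 or Slc15a4, lay beside them, or were copies of 1 of the 9. Others named were chosen after their values were seen, and 2 genes that met the rule are not reported here. Replicates are separate samples of 1 mouse (Gfi1+/+) or of pooled mice (Gfi1cre/+), so the spread within the genotypes is not of the same kind.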

Additional observations from a re-analysis of the deposited data

How the results depend on the processing

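The log2 difference of Irf7 ran from 0.53 to 0.65 and that of Slc15a4 from 0.28 to 0.33 over all alternatives, including each library left out, and the median over the 9 genes from 0.02 to 0.23. Irf7 and 4 other genes have no value at a mean of at least 200 normalized reads, which removes them, and so the median has none there either. Of the 7 other genes, Ifit1, Ifit3, Oasl2 and Irf9 changed the sign of their differences when a library was left out. No alternative gave a gene of the interferon lists with an adjusted p-value under 0.05. The count at an unadjusted p-value under 0.05, which was 3, became 9 without the eBayes trend (3.57% of all genes passed) and 5 with DESeq2 (2.59%). It ran from 1 without Gfi1cre/+ replicate 2 (1.49%) to 17 without Gfi1+/+ replicate 3 (16.2%), with 6 without Gfi1cre/+ replicate 1 (2.17%) and 8 without Gfi1cre/+ replicate 3 (1.72%). The cause was not tested. The same-numbered libraries of both genotypes did not deviate together (correlations of -0.0944, 0.107 and -0.0326). With so few libraries this cannot tell whether they were prepared together, which the labels do not say. With the replicate number as a block the count was 6 (3.20%), of which 2 were among the 3. The split of 91 positive to 25 negative differences became 96 to 20 with median centring and 92 to 24 with TMM factors. Depth limits Irf7, Isg15 and Ifit1, which rest on 37 to 149 reads per library, and counting alone gives Irf7 a coefficient of variation of 8.19% to 12.6%.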

Other observations

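Several interferon genes outside the 9 kept their libraries apart between genotypes without passing the adjusted test, and they are named here after their values were seen. Among effectors, Samhd1, an enzyme that degrades nucleotides, had 521, 610.4 and 589 normalized reads in Gfi1+/+ and 626, 679 and 628 in Gfi1cre/+ (log2 difference 0.17). Slfn2, a Schlafen family gene that limits immune cell activation, had 63.0, 63.9 and 71.7 and then 73.1, 86.1 and 84.9 (0.29). Of the genes on the interferon lists it was the closest to Irf7 in its pattern. Dtx3l, a ubiquitin ligase, had 152, 154 and 151 and then 186, 187 and 159 (0.22). Parp12, Cmpk2, Herc6 and Lgals9 were the other effectors higher in each Gfi1cre/+ library, by 0.11 to 0.24 on the log2 scale.

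Nmi, Plscr1 and Ddx60 were lower in each Gfi1cre/+ library. Ddx60, a helicase that assists RNA sensing, had 44.4, 39.8 and 42.2 normalized reads in Gfi1+/+ and 23.5, 30.2 and 35.9 in Gfi1cre/+, a log2 difference of -0.50, the largest negative value of the 116 genes. The receptor subunits Ifnar2, with 496, 494 and 535 against 557, 558 and 536, and Ifngr1, with 895, 885 and 854 against 922, 944 and 921, were higher in each Gfi1cre/+ library, by 0.12 and 0.08. Upstream of Irf7, the kinase Irak4 was higher (0.15) and the kinase Tbk1 lower (-0.06) in each of them. With limma, none of these genes but Nmi had an unadjusted p-value under 0.05.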
